A study of Mus musculus with 18 samples.

Results

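The question addressed here was whether the dose of folic acid (FA) in the diet changed gene expression inside polypoid dysplasia, the raised pre-cancerous lesion of the inflamed colon, and how large a change could have gone unseen. The comparison took the 9 polypoid dysplasia libraries out of 18 in the series, chosen by their labels and by no measured value. They were 5 libraries from mice fed 8 mg/kg FA (8P) and 4 from mice fed 0 mg/kg FA (0P). All were Swiss Webster mice, female per the study's methods, that had been injected with azoxymethane (AOM), a colon carcinogen, at 7 weeks of age. From 9 weeks their drinking water held dextran sulfate sodium (DSS), an irritant that causes colitis, in 4 cycles of 7 days at 2% followed by 14 days of plain water. They ate chow with 2 mg/kg FA until 11 weeks of age, then 0 or 8 mg/kg for 16 weeks, and were killed at 27 weeks. Both groups had AOM and DSS, and neither stayed on 2 mg/kg, so the contrast is one between a folate-free and a supplemented diet in animals that all had colitis. The other 9 libraries, from non-dysplastic epithelium of the same diets (8ND, n = 5, and 0ND, n = 4), entered the fit and served as the comparison at the end.

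Folate carries single carbon units. Cells use them to make purines and thymidylate for DNA, and to remethylate homocysteine to methionine, the precursor of S-adenosylmethionine, which donates the methyl group of DNA methylation. Dividing colonic cells depend on these routes, and dysplasia in this model is commonly driven by beta-catenin, which keeps the crypt's stem cell program active.

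The cells were cut by laser from formalin-fixed, paraffin-embedded colon, and 40 ng of total RNA went into each library. Counts on genes were 7207931 to 17048524 per library in 0P and 8664822 to 15555221 in 8P. Epithelial markers were abundant in every library, with the adhesion gene Epcam at 516 to 863 CPM (read counts scaled to a common library size) and Cdh1, which encodes E-cadherin, at 455 to 824. The dissected areas were not purely epithelial, since the fibroblast collagen Col1a1 stood at 155 to 473 CPM, the smooth muscle actin Acta2 at 48.9 to 133 and the pan-leukocyte gene Ptprc at 108 to 233. In such samples fewer cells of a type and less RNA per cell cannot be told apart. Libraries of 1 diet were about as alike as libraries of different diets, with a median correlation of 0.973 within 0P, 0.968 within 8P and 0.970 between them. The labels do not say that each library came from a separate mouse, so p-values measure the spread between these libraries.

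No gene passed the threshold of an adjusted p of 0.05 in 8P vs 0P. In edgeR's quasi-likelihood test over all 18 libraries, 0 of 20787 genes were called (0%). At an unadjusted p under 0.05 there were 2093 genes (10.1%), of which 1163 were higher in 8P (5.59%) and 930 lower (4.47%). The CPM of the groups did not overlap for 467 genes (2.25%), with 282 above in 8P (1.36%) and 185 below (0.89%). The lowest adjusted p-values lay just above the threshold, at 0.0530. This held for the fit of all 18 libraries. With only the 9 polypoid libraries in edgeR's fit, 0 genes passed and the lowest adjusted p was 0.308. In limma-voom over all 18 libraries it was 0.115. With DESeq2, 1 of the tools in the study's methods, 20 genes passed, 9 higher and 11 lower, and limma-voom called 0 genes, or 1 with sample quality weights. Without 0P 1, 5 genes passed in edgeR, namely Pcdh11x, Tnnt2 and Hoxd12 lower and Foxd2 and Mab21l2 higher in 8P, the latter pair being at 4.93 and 13.6 CPM in 0P 1 and at most 0.746 and 1.154 in the other 0P libraries.

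Estimates were above 0 for 10537 genes (50.7%). The median gene had a log2 fold change of 0.01, and the median size regardless of sign was 0.20. Half-widths of the 95% interval had a median of 0.50 on the log2 scale, which is 1.41-fold. The whole interval lay inside 1.5-fold in either direction for 7576 genes (36.4%), inside 2-fold for 14278 (68.7%) and inside 4-fold for 19755 (95%). A 2-fold rise was excluded for 17039 genes (82%) and a 2-fold fall for 17340 (83.4%). In 2 one-sided tests against 2-fold, adjusted over all genes, 15105 genes passed (72.7%), which is a more lenient rule than the interval. Of the 14278 genes with an interval inside 2-fold, 1114 were at an unadjusted p under 0.05, beside 2093 of all 20787 genes. For those 1114 a low p-value and the exclusion of a large difference came together. Point estimates reached 2-fold in 655 genes (3.15%). The interval lay wholly beyond 1.5-fold for 54 genes (0.26%) and wholly beyond 2-fold for 7 (0.0337%). Lower in 8P among those 7 were Tnxb, Pcdh11x, Hoxd12 and the gene models 7530428D23Rik and Gm13340, and higher were Igkv1-88 and the gene model B430212C06Rik. Of them, Gm13340 was at 154 CPM in 0P 4 and at most 6.97 in each other polypoid library, while Igkv1-88, an immunoglobulin gene segment, was at 16.98 CPM in 8P 2 and at most 4.22 elsewhere.

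What could be excluded depended on the level of the gene. Among the 1807 genes under 1 CPM, an effect of 2-fold was excluded for 7.3%, and the median gene had 82 reads over the 9 libraries. The share rose to 42.6% between 1 and 5 CPM, 81.6% between 5 and 20 CPM, 93.1% between 20 and 100 CPM and 94.3% at 100 CPM or more. An effect of 1.5-fold was excluded for 0% of genes in the lowest class and 77.1% in the highest. A single gene of median precision that changed alone would have needed a 2.95-fold change to pass the adjusted threshold.

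**Figure D1:**
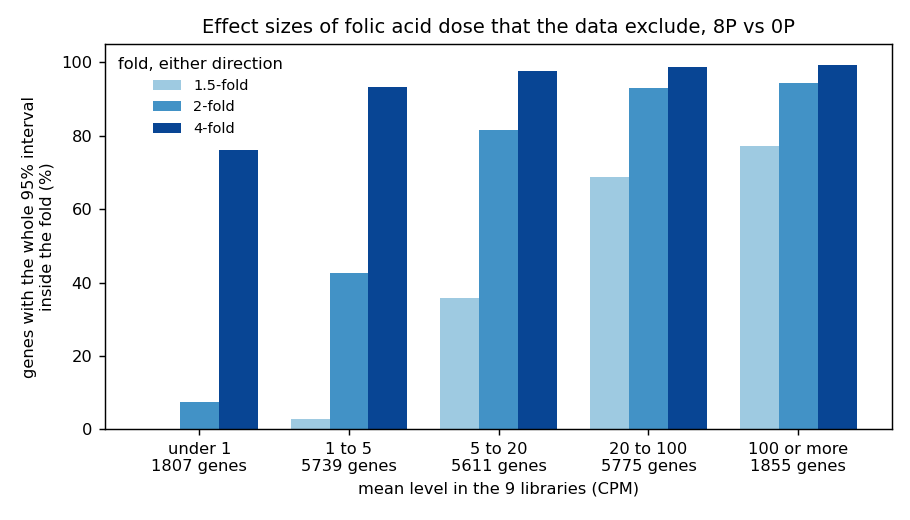
Percentage of genes (y axis) whose whole 95% interval for 8P vs 0P lay inside 1.5-, 2- or 4-fold, by mean level in the 9 libraries in CPM (x axis, with the number of genes per class). The bars for 2-fold climb from 7.3% under 1 CPM to 94.3% at 100 CPM or more.

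The smallest p-values belonged to genes that were lower in 8P. Tnxb encodes tenascin-X, a matrix glycoprotein made by fibroblasts (mm10, chromosome 17, 34670535 to 34719815, plus strand). It was at 37.9, 35.0, 33.9 and 27.1 CPM in the 0P libraries and at 9.64, 13.1, 5.93, 13.8 and 16.1 in the 8P libraries. Every 8P library lay below every 0P library. The log2 fold change was -1.52 (SE 0.24, 95% interval -2.02 to -1.02, adjusted p = 0.0530 in edgeR). It overlaps the pseudogene Cyp21a2-ps on the other strand, and whether the counting used strand is not given, so reads of such partners cannot be told apart. Tnxb was past the threshold with DESeq2 (adjusted p = 9.36e-06), with DESeq2's size factors in edgeR (adjusted p = 0.0487) and with a stricter filter on low counts (adjusted p = 0.0494). Over its 20 alternatives the adjusted p ran from 9.36e-06 to 0.482. Mean levels in non-dysplastic epithelium were higher, at 106 CPM in 0ND and 82.1 in 8ND.

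Pcdh11x, a protocadherin of the X chromosome (120290259 to 120910619, plus strand), was scarce, and its gene overlaps a small coding gene and pseudogenes on the other strand. It was at 1.76, 2.31, 3.29 and 1.37 CPM in 0P and at 0.575, 0.544, 0.244, 0.281 and 0.278 in 8P. These were 96 reads in 0P and 24 in 8P, again with no overlap. The log2 fold change was -2.44 (SE 0.41, 95% interval -3.29 to -1.59, adjusted p = 0.0530 in edgeR), and the adjusted p over the 20 alternatives ran from 0.0136 to 0.319.

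Cpeb2 was the gene with the smallest p among those higher in 8P. It encodes a protein that binds the tails of messenger RNAs and regulates their translation (chromosome 5, 43233170 to 43289724, plus strand). It was at 46.9, 44.6, 40.7 and 47.7 CPM in 0P and at 72.2, 58.7, 77.0, 67.1 and 69.6 in 8P. No 0P library reached the lowest 8P library, and the log2 fold change was 0.61 (SE 0.10, 95% interval 0.40 to 0.83, adjusted p = 0.0599 in edgeR). The gene model 6030400A10Rik overlaps Cpeb2 on the same strand and moved the same way, with a log2 fold change of 1.35 (SE 0.26), so their reads may not be independent. Cpeb2 passed with DESeq2 (adjusted p = 0.000201) and with quality-weighted limma-voom (adjusted p = 0.0483), in a range of 0.000201 to 1 over 20 alternatives.

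The other genes with small p-values, gene models without a name left aside, had larger p-values than these and were not past the threshold in edgeR. Lower in 8P were Aacs, which activates acetoacetate for lipid synthesis, Mid1ip1, a partner of acetyl-CoA carboxylase, Syne3, a nuclear envelope protein, and Pkhd1l1. Their log2 fold changes were -0.55, -0.61, -0.83 and -1.25. Higher in 8P were Napb, a factor of vesicle fusion, at 0.80 and Enpp1, an ectonucleotidase, at 0.44. Aacs stood at 43.5 to 52.9 CPM in 0P against 29.2 to 40.0 in 8P, and Mid1ip1 at 47.2 to 63.9 against 29.4 to 41.4. The groups did not overlap for either gene.

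**Figure D2:**
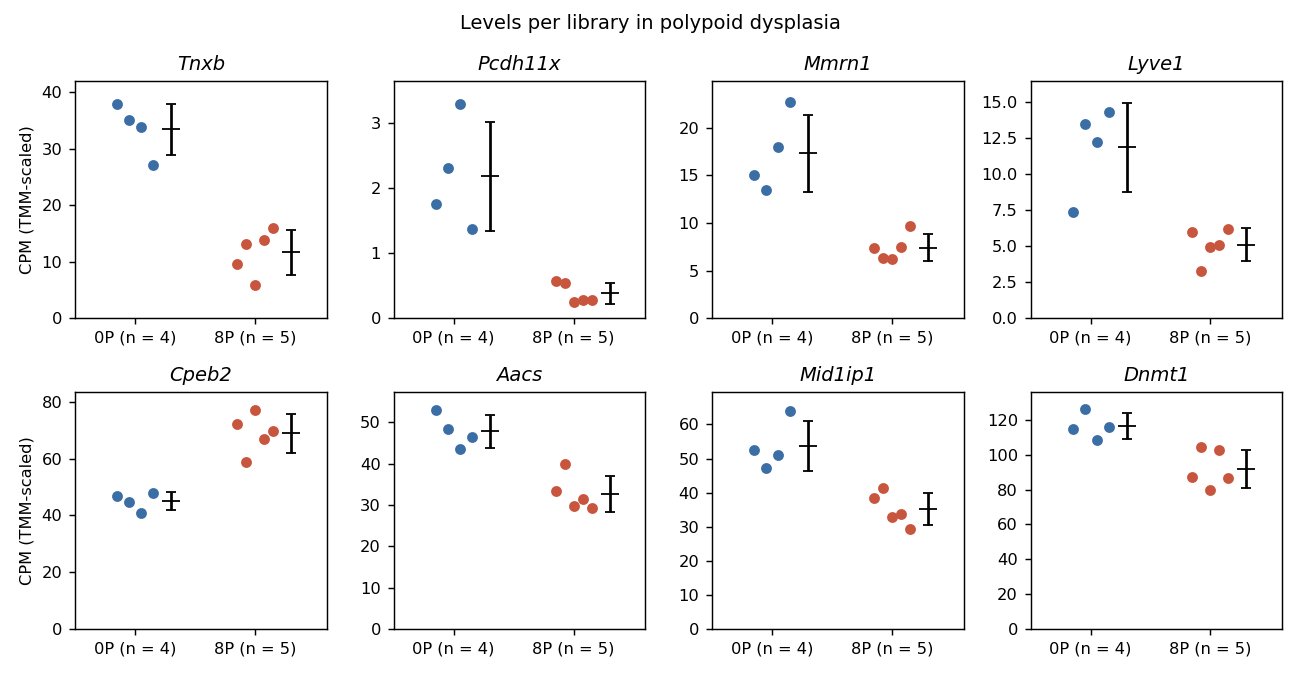
CPM of 8 genes (y axes) in each 0P (blue, n = 4) and 8P (red, n = 5) library, with the mean and SD as a black bar at the right of each group. The groups are apart for all 8 genes, with 8P lower for 7 of them and higher for Cpeb2.

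Genes of lymphatic endothelium, the lining of lymph vessels, made up the list with the largest share of low p-values. Of 13 listed genes 12 were tested, and 6 of them were lower in 8P at an unadjusted p under 0.05 and 0 higher, beside 4.47% and 5.59% of all genes. For 5 of the 12 the 8P libraries lay wholly below the 0P libraries, beside 0.89% of all genes. The list's median log2 fold change was -0.54, against 0.01 over all genes. None of the 12 passed the adjusted threshold in edgeR.

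Mmrn1, which encodes the endothelial glycoprotein multimerin-1 (chromosome 6, 60924976 to 60989378, plus strand, overlapping no other annotated gene), was at 15.1, 13.5, 17.97 and 22.6 CPM in 0P. In 8P it was at 7.41, 6.31, 6.17, 7.46 and 9.65. The lowest 0P library was above the highest 8P library, and the log2 fold change was -1.22 (SE 0.21, 95% interval -1.66 to -0.79, adjusted p = 0.0599 in edgeR). DESeq2 called it, with an adjusted p of 0.000201, and over the 20 alternatives the adjusted p ran up to 1. Lyve1, the hyaluronan receptor of lymph vessels, was at 7.40, 13.5, 12.2 and 14.3 CPM in 0P and at 6.003, 3.27, 4.95, 5.07 and 6.22 in 8P. Its groups did not overlap either, with a log2 fold change of -1.21 (SE 0.25, adjusted p = 0.351 in edgeR and 0.00991 in DESeq2, and up to 1 over the alternatives).

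Flt4, the receptor of the lymphangiogenic growth factor VEGF-C, had a log2 fold change of -1.02 (SE 0.27). Ccl21a, a chemokine that draws dendritic cells and T cells into lymph vessels, had -1.23 (SE 0.31), on 1.62 to 7.40 CPM. Reln, which encodes reelin, had -0.88 (SE 0.21). In all 3 genes every 8P library lay below every 0P library. Tbx1, a transcription factor, had -0.94 (SE 0.37) with overlapping groups. Ccl21a has close copies in the mouse genome, so its count is uncertain. The 5 genes with separated groups summed to 55.7 to 79.3 CPM in 0P and 27.7 to 39.2 in 8P. Since they were picked for their separation, that gap between the sums follows from the choice. The sum over the whole list, most of it Prox1, was 636 to 1021 CPM in 0P and 655 to 1099 in 8P (exact permutation p = 0.960, two-sided).

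The other 6 members did not reach an unadjusted p of 0.05. The lymphatic regulator Prox1 had a log2 fold change of 0.03 (SE 0.40), but at 633 and 646 CPM it was far above the other members, and it is also on the list of beta-catenin targets of dysplastic epithelium. Nr2f2, Fgl2, Stab1, Stab2 and Pdpn had log2 fold changes between -0.20 and 0.12. Whether other cells of the dissected areas gave reads of these members, or of the 6 lower ones, was not tested. When each library was left out in turn, the count of members lower at an unadjusted p under 0.05 was 5 or 6.

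**Figure D3:**
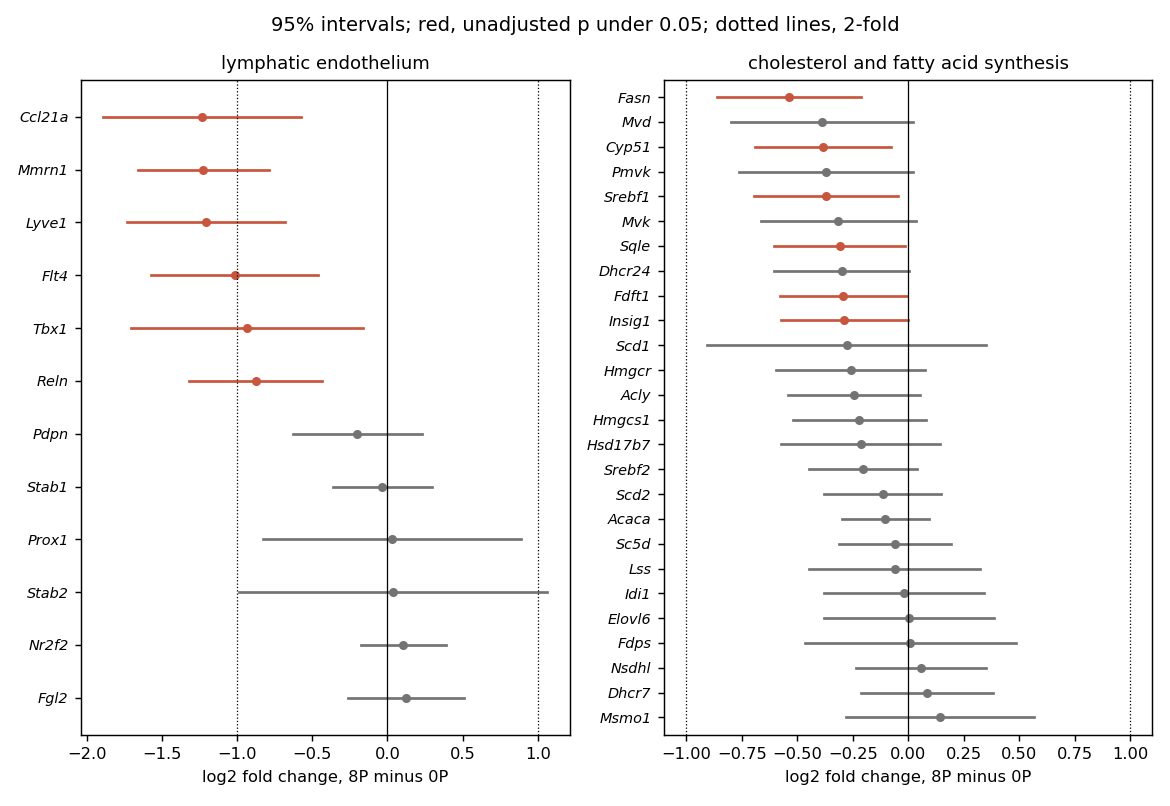
Log2 fold change in 8P vs 0P (x axes) with its 95% interval for the 12 tested genes of lymphatic endothelium (left) and 26 of the 28 genes of cholesterol and fatty acid synthesis (right). Red marks an unadjusted p under 0.05, and dotted lines mark 2-fold. In the left panel 6 intervals lie below 0 and the other 6 span it, while in the right panel 6 are red, all with estimates below 0, and all 26 lie inside 2-fold.

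Genes of the other stromal types were mostly lower by estimate, with fewer low p-values. Of 20 blood endothelial genes, 3 were lower at an unadjusted p under 0.05 and 0 higher, beside 4.47% and 5.59% of all genes. The list's median was -0.27. With 1 library left out the count ran from 2, without 0P 3 or 8P 3, to 5 without 8P 2. Vwf, which encodes von Willebrand factor, had the smallest p (log2 fold change -0.78, SE 0.22). Of 31 fibroblast and matrix genes 7 were lower and 0 higher, with a median of -0.21, led by Tnxb and with Dcn at -0.52 (SE 0.17). That count ran from 4 without 0P 4 to 12 without 8P 5, and the median from -0.12 without 8P 3 to -0.33 without 8P 5. All 17 tested smooth muscle genes had estimates below 0, with a median of -0.47, but only 1, the regulator Myocd (-0.47, SE 0.20), was at an unadjusted p under 0.05, against 0 without 0P 1, 8P 3 or 8P 4 and 4 without 0P 3 or 8P 5. The summed CPM of the fibroblast genes nevertheless overlapped widely, at 3543 to 4353 in 0P and 2230 to 5300 in 8P, and so did those of smooth muscle, at 1209 to 1773 and 891 to 1712. The part of stromal content in the Tnxb and lymphatic values was not tested. Thbs4, a thrombospondin of the matrix, was among the 6 genes of at least 5 CPM with the lowest fold changes among those at an unadjusted p under 0.05 with separated groups, at -1.22 (SE 0.50).

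Immune genes gave few low p-values, beside 4.47% lower and 5.59% higher of all genes. Lists this small decide little at those shares. Their median half-widths were 0.55 to 1.54 on the log2 scale, against 0.50 over all genes. Of 17 T and NK cell genes, 1 was lower at an unadjusted p under 0.05, Cd4 at -0.55 (SE 0.21), and 0 were higher. No gene of 21 for macrophages and dendritic cells and none of 11 for neutrophils was at an unadjusted p under 0.05. All 8 tested MHC class II genes had estimates below 0, with a median of -0.42, and 0 had an unadjusted p under 0.05. Their most abundant member, Cd74, had -0.23 (SE 0.38). For the 19 B and plasma cell genes the data excluded little, with 0 intervals inside 2-fold. Iglc1, a light chain, was the single one at an unadjusted p under 0.05, higher at 1.68 (SE 0.65), and it ran from 3.34 to 48.3 CPM within 8P.

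The folate list held 29 genes, of which 27 were tested, Folr1 and Ftcd having too few reads. At an unadjusted p under 0.05, 3 were lower in 8P and 1 was higher, which is 14.8% against 10.1% of all genes, and 0 passed the adjusted threshold. The count of lower genes ran from 1 without 0P 2 to 6 without 8P 4, and the median was -0.08. The interval lay inside 2-fold for 21 of the 27 and inside 1.5-fold for 15, and a 2-fold rise was excluded for 26. With all 29 genes together, the list was at 661 to 832 CPM in 0P and 677 to 742 in 8P.

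Atic, which catalyses the last steps of purine synthesis and uses folate, was at 63.5, 68.2, 65.0 and 81.0 CPM in 0P and at 54.2, 54.8, 61.1, 61.2 and 55.5 in 8P. The groups were apart by a narrow gap, and the log2 fold change was -0.28 (SE 0.10, adjusted p = 0.465 in edgeR). Gart, which uses folate earlier in the route, was at -0.30 (SE 0.12, adjusted p = 0.465) with overlapping groups. Mthfd1l, which makes formate in mitochondria, was at 30.3, 41.7, 36.2 and 32.1 CPM in 0P and at 29.5, 29.8, 23.2, 25.1 and 24.2 in 8P. Its 8P libraries all lay below the lowest 0P library, and the log2 fold change was -0.41 (SE 0.17). Gldc, a subunit of the glycine cleavage system, was the member higher in 8P, at 0.58 (SE 0.25) on 4.12 to 11.9 CPM.

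Other enzymes and the transporters had intervals that spanned 0. The thymidylate synthase gene Tyms was at -0.07 (95% interval -0.41 to 0.26). The transporters were less precise. The reduced folate carrier Slc19a1 was at -0.51 (-1.06 to 0.04) on 3.53 to 9.93 CPM, so a 2-fold fall was not excluded, and the proton-coupled transporter Slc46a1 at -0.41 (-1.10 to 0.27).

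In the methionine cycle and transsulfuration, 17 of 20 genes were tested and 0 were at an unadjusted p under 0.05, beside 10.1% of all genes. The interval lay inside 2-fold for 15 of them. Mat2a, which makes S-adenosylmethionine, was at 0.02 (-0.27 to 0.30), Mtr, the folate-dependent methionine synthase, at 0.03 (-0.22 to 0.27), and Ahcy, which clears S-adenosylhomocysteine, at -0.35 (-0.92 to 0.22).

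Of the DNA methylation machinery 20 genes were tested. At an unadjusted p under 0.05, 1 was lower and 0 were higher, beside 4.47% and 5.59% of all genes. Without 0P 1 the count was 5 lower, and without 8P 2 it was 3 lower and 2 higher. The gene was Dnmt1, the methyltransferase that copies methylation to the new strand (chromosome 9, 20907209 to 20959888, minus strand). It was at 115, 126.1, 109 and 116 CPM in 0P and at 87.1, 104, 79.5, 103 and 86.4 in 8P. Every 8P library was below the lowest 0P library, with a log2 fold change of -0.34 (SE 0.11, 95% interval -0.58 to -0.10, adjusted p = 0.460 in edgeR). A 2-fold change of Dnmt1 was thus excluded. Its partner Uhrf1 was at -0.28 (SE 0.16). The de novo enzymes Dnmt3a and Dnmt3b were at 0.11 (SE 0.13) and -0.31 (SE 0.23), and the demethylating Tet2 at 0.18 (SE 0.10). For 19 of the 20 genes the interval lay inside 2-fold. Of 20 germline genes that DNA methylation normally keeps silent, only 3 had enough reads to test, and 1 of them, Brdt, was at an unadjusted p under 0.05, lower at -0.57 (SE 0.27). Of 24 tested imprinted genes 3 were lower and 1 higher at an unadjusted p under 0.05, which is 16.7% against 10.1% of all genes. The count of lower ones was 0 without 0P 4 and 1 without 8P 3.

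**Figure D4:**
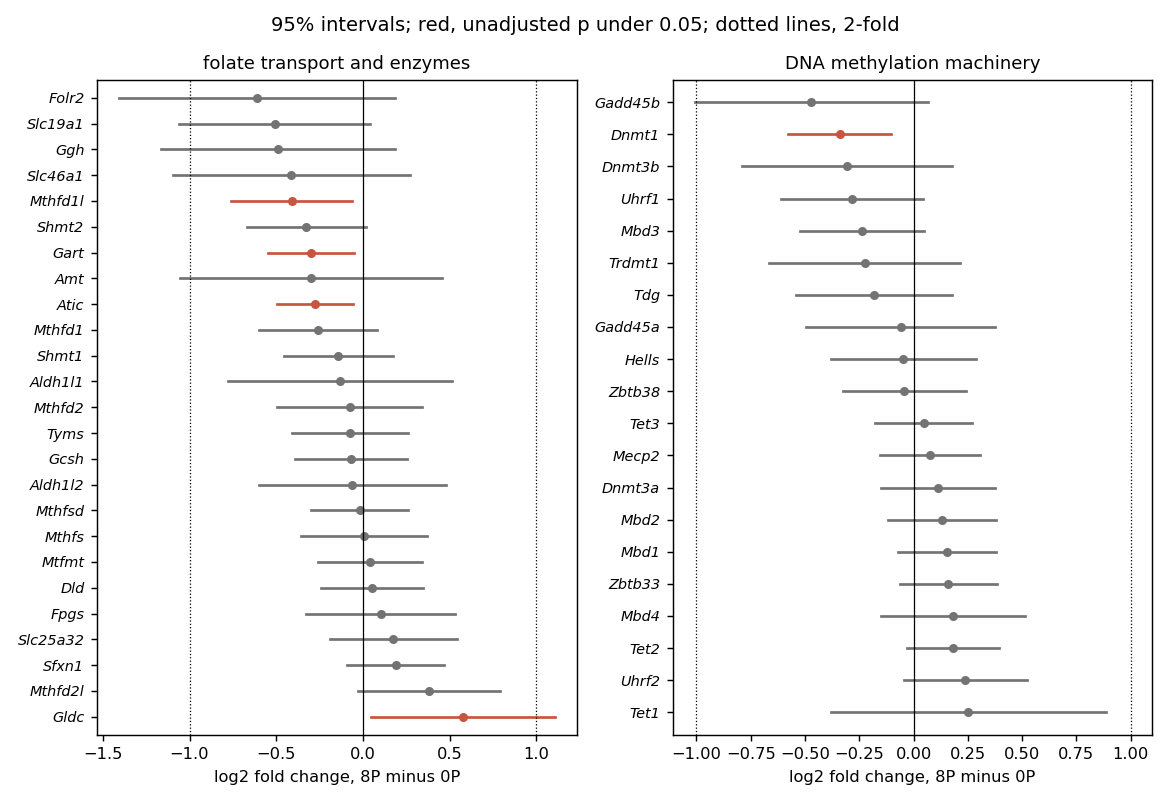
Log2 fold change in 8P vs 0P (x axes) with its 95% interval for 25 of the 27 tested genes of folate transport and enzymes (left) and the 20 of the DNA methylation machinery (right). Red marks an unadjusted p under 0.05, and dotted lines mark 2-fold. In each panel 19 intervals lie inside 2-fold.

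Of 36 tested Wnt/beta-catenin targets 1 was lower at an unadjusted p under 0.05 and 0 were higher, which is 2.78% against 10.1% of all genes, and the median was 0.01. The lower one was Bambi, a decoy receptor, at -0.54 (SE 0.21). A 2-fold rise was excluded for 28 of the 36 and a 2-fold fall for 29. Ccnd1, which encodes cyclin D1, was at 0.00 (95% interval -0.39 to 0.38), Myc at -0.18 (-0.49 to 0.13) and the feedback inhibitor Axin2 at -0.25 (-0.69 to 0.19). The Ctnnb1 transcript, which encodes beta-catenin itself, was at 655, 748, 797 and 885 CPM in 0P and at 716, 647, 562, 729 and 580 in 8P. The groups overlapped, and the log2 fold change of -0.25 (-0.53 to 0.03) excluded a 1.5-fold rise. RNA levels say nothing of the protein's place in the cell.

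Lgr5, the stem cell receptor, was the target with the highest estimate. It was at 130, 84.6, 74.2 and 70.2 CPM in 0P and at 125.7, 206, 170, 100 and 220 in 8P. The groups overlapped through 0P 1, and the log2 fold change was 0.87 (SE 0.49, 95% interval -0.17 to 1.91), so neither 0 nor a 3-fold rise was excluded. Of 19 colonic stem cell genes 15 had estimates above 0, with a median of 0.18. At an unadjusted p under 0.05 there were 0, beside 10.1% of all genes. Summed CPM of the list was 2672 to 3077 in 0P and 3067 to 3672 in 8P (exact permutation p = 0.0238, two-sided, adjusted p = 0.684 over 53 measures).

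Of 36 targets and feedback genes of MAPK/ERK signaling 2 were higher at an unadjusted p under 0.05 and 0 lower, beside 5.59% and 4.47% of all genes. This balance was not stable, with 4 higher and 5 lower without 0P 1, 1 higher and 3 lower without 0P 4, 2 and 6 with quality-weighted limma-voom, and 1 and 4 with the share of uniquely aligned reads off genes as a covariate. Spred1, an inhibitor of the pathway, was at 92.1 to 107 CPM in 0P and 109 to 134 in 8P, without overlap (log2 fold change 0.29, SE 0.11). The immediate early gene Fos was at 0.51 (SE 0.22), and Fosl1 had an estimate of the other sign, at -0.90 (SE 0.43), with an interval of -1.81 to 0.01. The study singled out a list of genes whose methylation and expression differed by diet in non-dysplastic epithelium. It states that similar expression changes were not observed in polypoid dysplasia. The list was drawn partly from the non-dysplastic libraries of the same series, so it is not independent evidence. Of the 15 genes on this list, 1 was higher and 1 lower in 8P at an unadjusted p under 0.05. The lower one was Rab11fip4 at -0.40 (SE 0.19). The flippase gene Atp11a was tight within each diet, at 196, 193, 190 and 195 CPM in 0P and 230, 229, 231, 229 and 237 in 8P. All 8P libraries were above all 0P libraries, yet the log2 fold change was only 0.26 (SE 0.10, adjusted p = 0.465 in edgeR).

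Among epithelial lineages the enteroendocrine list, of hormone-producing cells, had the lowest median, at -0.80 over 18 tested genes. At an unadjusted p under 0.05, 4 were lower and 0 higher, beside 4.47% and 5.59% of all genes. The tested members had a median level of 0.70 CPM and a median half-width of 1.24 on the log2 scale. Chgb, a granule protein, was at 22.1, 18.2, 11.7 and 13.4 CPM in 0P and at 7.60, 9.80, 3.82, 2.67 and 5.10 in 8P. Its groups were apart, with a log2 fold change of -1.51 (SE 0.44), and so were those of Chga at -1.17 (SE 0.48). Of all genes, 0.89% had every 8P library below every 0P library. The glucagon precursor Gcg was at -1.77 (SE 0.61), but it stood at 5.37 CPM in 0P 1 and at most 1.23 in the other 0P libraries. The median was -0.30 without 0P 1 and -1.22 without 8P 2, and the count of lower genes ran from 2 without 8P 3 to 7 without 0P 4 or without 8P 2. It was -0.21 over the 8 genes with at least 1 CPM in 4 polypoid libraries and -0.27 over 9 genes when only polypoid libraries were fitted. The summed CPM of the list was 54.0 to 67.4 in 0P, and in 8P it was 17.3 to 48.0 in 4 libraries and 106 in 8P 5. Of 28 absorptive colonocyte genes 6 were lower and 0 higher, among them the mucin gene Muc3 at -1.02 (SE 0.36). Without 0P 1 there were 2 lower and 5 higher, with a median of -0.04 against -0.15. Of 15 tuft cell genes 2 were lower, among them Avil at -0.82 (SE 0.31), with 1 without 0P 3, 0P 4 or 8P 3 and 4 without 8P 2. Goblet cell genes gave 0 of 22 at an unadjusted p under 0.05, with Muc2, the main secreted mucin, at 0.28 (95% interval -0.62 to 1.19). Of 20 genes of general colon epithelium 4 were lower, among them the keratins Krt19 at -0.66 (SE 0.18) and Krt8 at -0.45 (SE 0.18). That count was 2 without 0P 1, 0P 2 or 8P 1 and 1 without 8P 5.

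Genes of cholesterol and fatty acid synthesis leaned lower. Of 28 tested, 8 were lower in 8P at an unadjusted p under 0.05 and 0 higher, which is 28.6% against 10.1% of all genes, 23 had estimates below 0, and the median was -0.25. None passed the adjusted threshold in edgeR. Fasn, the fatty acid synthase, was at 243, 320, 375 and 375 CPM in 0P and at 232, 292, 183, 265 and 159 in 8P. The groups overlapped through 0P 1, and the log2 fold change was -0.54 (SE 0.16). Cyp51, of sterol synthesis, was at -0.38 (SE 0.15) and the regulator Srebf1 at -0.37 (SE 0.15). A change of 2-fold was excluded for 27 of the 28. The count of lower genes ranged from 2, without 0P 2 and without 8P 5, to 12 without 8P 2. Aacs and Mid1ip1, which act in the same routes, are not on the list.

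Proliferation genes were mostly lower by estimate. Of 35, 6 were lower at an unadjusted p under 0.05 and 0 higher, beside 4.47% and 5.59% of all genes. The median was -0.21, and the interval lay inside 2-fold for 33. Without 0P 2 there were 2 lower and 1 higher, with a median of -0.09, and without 8P 3 or 8P 5 there were 3 lower. Mcm2, of the replication helicase, was at -0.38 (SE 0.12) and Rrm1, of ribonucleotide reductase, at -0.29 (SE 0.11). Mki67, the usual proliferation marker, was at -0.02 (95% interval -0.39 to 0.34). Of 26 glycolysis and hypoxia genes 6 were lower and 0 higher, with Pkm at -0.43 (SE 0.15). That count ran from 2 without 0P 1 to 10 without 8P 2, and was 1 with the share of uniquely aligned reads off genes as a covariate. Of 25 p53 targets 1 was at an unadjusted p under 0.05, Trp53inp1, higher at 0.54 (SE 0.15), with 170 to 249 CPM in 0P and 278 to 358 in 8P. Of 23 unfolded protein response genes 0 were at an unadjusted p under 0.05, and a 2-fold change was excluded for all 23.

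The posterior Hox genes, which encode position along the gut, varied widely between libraries of 1 diet. Hoxd12 had the lowest fold change of all named genes, but it was at 27.2 and 23.5 CPM in 0P 3 and 0P 4, at 0.693 in 0P 2, and at 0 in 0P 1. In 8P it was at most 0.141. Hoxd9 and Hoxd10 were also lower at an unadjusted p under 0.05, at -1.45 (SE 0.48) and -1.74 (SE 0.73), and Hoxa13 was higher at 0.61 (SE 0.28). Hoxd13 was at 5.46 CPM in 0P 1 and 71.5 to 77.7 in the other 0P libraries, and at 33.7, 15.6, 0.406, 0.352 and 34.2 in 8P. Where along the colon each lesion lay is not given in the labels.

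Ribosomal protein genes were lower by estimate in 45 of 46, with a median of -0.39. At an unadjusted p under 0.05, 9 were lower and 0 higher, beside 4.47% and 5.59% of all genes. The summed CPM of the list was 7403, 6942, 6606 and 8279 in 0P and 5171, 7061, 4741, 7334 and 4390 in 8P. The groups overlapped, since 8P 2 and 8P 4 were at the level of 0P. The count of lower genes was 0 without 8P 3 or without 8P 5 and 34 without 8P 4, so these libraries decided it. Ribosomal protein genes have many pseudogenes, which makes their counts uncertain.

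The remaining lists gave 0 to 4 genes at an unadjusted p under 0.05, beside 4.47% lower and 5.59% higher of all genes. In the core clock 3 of 19 were higher and 1 lower, with the activators Arntl at 0.56 (SE 0.22) and Clock at 0.29 (SE 0.12) and the repressor Per3 at -0.48 (SE 0.21). The time of killing is not in the labels. In amino acid supply under ATF4, 3 of 29 were lower, among them the serine synthesis gene Psat1 at -0.53 (SE 0.23), and 1 was higher, Nupr1 at 0.56 (SE 0.22), which was also the single one of 19 Paneth-like genes. The ATF4 count of lower genes ran from 0 without 0P 4 to 9 without 8P 2, and the clock count of higher genes fell to 0 without 0P 3. In the interferon response Oas1a was at -0.81 (SE 0.29) and Mx1 at 0.69 (SE 0.31), 2 of 32 genes with opposite signs. Of 19 genes of beta-catenin and its destruction complex, 1 was higher, the ubiquitin ligase gene Btrc at 0.34 (SE 0.14).

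Some low p-values came with 1 library far from the rest of its group. Over all genes, 4.47% were lower and 5.59% higher at an unadjusted p under 0.05. Of 23 inflammation genes only Ptgs2, the inducible cyclooxygenase, was lower, at -1.74 (SE 0.71), and it was at 151 CPM in 0P 3 against 15.8 at most in the other 0P libraries. Without 0P 3 its log2 fold change was 0.025. Of 11 mitochondrially encoded genes only mt-Co3 was lower, at -2.35 (SE 0.70), with 10.0 CPM in 0P 4 and 1.67 at most in the other 0P libraries. Of 24 fetal and regenerative epithelial genes Msln was lower at -1.10 (SE 0.44), of 10 mast cell genes Hdc at -1.40 (SE 0.66), and of 4 erythrocyte genes Hba-a2 at -1.85 (SE 0.70). Hdc and Hba-a2 also stood highest in 0P 4, at 45.7 and 2.55 CPM against 7.23 and 0.549 at most in the other 0P libraries. Of 4 adipocyte genes Lpl was higher at 0.65 (SE 0.27), and of 13 genes of enteric glia and neurons 0 were at an unadjusted p under 0.05.

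Among the genes chosen here by fold, gene models without a name left out, the highest folds were smaller than the lowest ones. Among the genes at an unadjusted p under 0.05, at 5 CPM or more and with separated groups, 88 were above and 99 below in 8P. The 6 highest were Tdrd5, a germline gene, at 0.96 (SE 0.37), Wdr78 at 0.95 (SE 0.23), Gad2, which makes the transmitter GABA, at 0.92 (SE 0.27), Phf11d at 0.88 (SE 0.28), the protocadherin gene Pcdhgb5 at 0.87 (SE 0.20) and Dnm3os, a noncoding RNA, at 0.83 (SE 0.24). None of these 6 was past 2-fold, while B430212C06Rik, a gene model and so left out here, had an interval wholly beyond a 2-fold rise. Pcdhgb5 stood at 6.04 to 7.48 CPM in 0P and 8.71 to 14.5 in 8P. The 6 lowest were Tnxb, Chgb, Mmrn1, Thbs4, Lyve1 and Flt4, all past 2-fold by estimate.

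A library measure moved with the ribosomal list. Of the uniquely aligned reads, 57.0 to 63.0% fell outside annotated genes in 0P and 59.2 to 68.1% in 8P (exact permutation p = 0.0794, two-sided, adjusted p = 0.684). Over the 9 libraries this share and the ribosomal sum had a Pearson correlation of -0.93 (exact permutation p = 0.000433) and a Spearman correlation of -0.88 (exact p = 0.00308). The adjusted p-values over the 8 relations computed were 0.00346 and 0.0123, and r was -0.88 without 0P 4 and 8P 3, which lay farthest from the median. The first principal component, the widest axis of variation over the tested genes, held 27.0% of the variance. With the share of all reads off genes its r was 0.90 (exact permutation, adjusted p = 0.00435). With the share of uniquely aligned reads its r was 0.78 (exact permutation, adjusted p = 0.0254), and 0.47 without 0P 4 and 8P 3. Between the share of uniquely aligned reads and the summed CPM of lymphatic endothelium, which Prox1 dominates, r was 0.13 (exact permutation p = 0.740, adjusted p = 0.846). Spearman's rho was 0.22 (exact p = 0.581, adjusted p = 0.664). Without 0P 4 and 8P 3 the lymphatic r was 0.84, so the value near 0 rested on those libraries. Within 1 diet there were too few libraries for such a value.

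Gene models without a name went with the higher side. They were 26.9% of the tested genes, 45.5% of the genes higher in 8P at an unadjusted p under 0.05 and 9.14% of the lower ones. With the share of uniquely aligned reads off genes as a covariate, an alternative chosen after seeing the data, the number of genes at an unadjusted p under 0.05 was 908 instead of 2093. The ribosomal median was then -0.06, with 0 genes lower and 1 higher. The lymphatic list still had 6 lower and the lipid synthesis list had 9, with medians of -0.41 and -0.28, and the enteroendocrine list had 0, with a median of -0.38. The fibroblast and matrix list had 2 lower and 0 higher, with a median of -0.06. For the folate list it was 1 lower and 0 higher, with a median of -0.04. Dnmt1 was at -0.19 (adjusted p = 0.986 in edgeR, in a range of 0.147 to 1 over its alternatives) and Tnxb at -1.33 (adjusted p = 0.245). Beyond this fit, the part of the off-gene share in the dose difference was not tested.

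**Figure D5:**
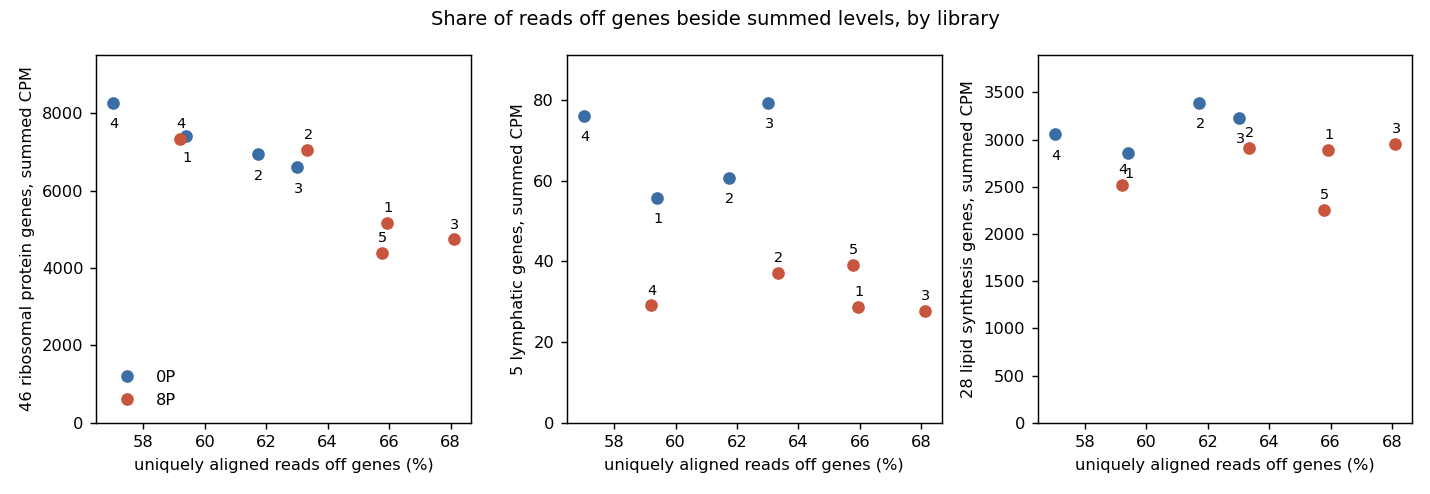
Share of uniquely aligned reads outside genes (x axes, %) against the summed CPM of 46 ribosomal protein genes (left), of Mmrn1, Lyve1, Reln, Ccl21a and Flt4 (middle) and of 28 lipid synthesis genes (right) in the 0P (blue) and 8P (red) libraries, numbered by replicate. The ribosomal sum goes down as the share goes up, while the 5 lymphatic genes are at 27.7 to 39.2 in 8P and 55.7 to 79.3 in 0P at shares from 57.0 to 68.1%. These 5 were picked for separated groups, so the gap in the middle panel follows from the choice. The ribosomal sums are not TMM-scaled, and those of the other panels are.

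The effect of dose in polypoid dysplasia was then set against that in non-dysplastic epithelium, as the difference of the 2 log2 fold changes. In edgeR 0 of 20787 genes passed the adjusted threshold (0%), with 2163 at an unadjusted p under 0.05 (10.4%). DESeq2 called 82, and limma-voom 0 with or without quality weights. In 8ND vs 0ND itself 10 genes passed (0.0481%), and 2059 were at an unadjusted p under 0.05 (9.91%). The smallest p-values were those of Cers3, a ceramide synthase, Tubb2b, Dyrk3, Rem2 and Mid1ip1. Cers3 had a log2 fold change of 0.12 in P and 2.91 in ND, a difference of -2.78 (SE 0.51, adjusted p = 0.220 in edgeR). Mid1ip1 was at -0.61 in P and 0.32 in ND, a difference of -0.93 (SE 0.19), and Fasn at -0.54 and 0.44, a difference of -0.98 (SE 0.22, adjusted p = 0.223). For the lymphatic genes the values were -1.22 in P and -0.18 in ND for Mmrn1, a difference of -1.04 (SE 0.29, adjusted p = 0.312), and -1.21 and 0.12 for Lyve1, a difference of -1.33 (SE 0.35, adjusted p = 0.308). Tnxb was at -1.52 and -0.37 (difference -1.14, SE 0.33). None of these differences passed in edgeR, while DESeq2 called those of Cers3, Tubb2b, Dyrk3, Rem2, Mid1ip1 and Fasn. Without 8ND 3, 26 genes passed the test of the difference.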

How the data were processed

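The authors aligned the reads with Bowtie to mm10 and deposited HTSeq's raw read counts per gene name. No source used here gives versions or whether strand was counted. The 5 summary lines stayed out of library sizes and tests. In the 9 libraries they held 22.0 to 40.7% of reads on no gene and 40.1 to 61.4% without a unique alignment.

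Counts were fitted in edgeR 4.0.16 (R 4.3.3) with TMM scaling, filterByExpr at a minimum count of 10 and 1 robust quasi-likelihood fit of all 18 libraries. P-values were adjusted by Benjamini-Hochberg. The 95% intervals used the moderated dispersion and were checked on simulated data of 8P vs 0P, where 95.2% of 20787 intervals held the true value. In those data 200 genes had a change. How often the intervals hold the true value in the measured libraries, some of which lay far from their group, was not tested. CPM are TMM-scaled, and the sums over whole lists are not. Exact permutation tests of library measures could reach a p of 0.00794. Alternatives used DESeq2 1.42.0 and limma 3.58.1.

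The 42 gene lists and the comparison were chosen with earlier results of these data known. Named genes were the 12 smallest p-values, gene models without a name left out here and in the choices by fold and by difference, the 6 highest and 6 lowest fold changes among genes at an unadjusted p under 0.05, 5 CPM or more and without overlap, the members of each list with the smallest p and the highest level, the study's 15 genes, the 5 smallest p-values of the difference of dose effects, and Ctnnb1. Other list members, Fasn's difference and the genes outside the lists that were named were chosen after their values were seen. Some genes of the lists count in them but are not reported here by name. Positions are from GENCODE M21. Replicate counts differed beyond sampling noise.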

Additional observations from a re-analysis of the deposited data

Results flagged for a closer look

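In 19 of 256 groups of libraries checked, 1 library lay far from the others by Dixon's test. The genes checked were those named in the text, some of them because 1 library stood out. The count can therefore not be set against a rate expected by chance. In 0P, Hoxd13 was at 5.46 CPM in 0P 1 while the next library had 71.5. Gcg was at 5.37 CPM in 0P 1, above 1.23. Ptgs2 was at 151 CPM in 0P 3, above 15.8, and mt-Co3 at 10.0 in 0P 4, above 1.67. Phf11d was at 2.47 CPM and Tdrd5 at 2.88 in 0P 3, below 7.62 and 4.23. Tubb2b was at 19.7 CPM in 0P 2, above 14.1. In 0P 1, Foxd2 was at 4.93 CPM, above 0.746, and Mab21l2 at 13.6, above 1.154. In 0P 4, Gm13340 was at 154 CPM, above 5.90, Btrc at 33.3, above 29.2, Hdc at 45.7, above 7.23, and Hba-a2 at 2.55, above 0.549.

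In 8P, Rem2 was at 4.79 CPM in 8P 3, below 8.63. Epcam was at 832 CPM in 8P 4, above 595, Tdrd5 at 11.8 in 8P 4, above 7.60, and Atp11a at 237 in 8P 5, above 231. In 8P 2, Igkv1-88 was at 16.98 CPM, above 4.22, and Oas1a at 4.14, above 2.49. No cause was tested.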

How the results depend on the processing

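The number of genes whose interval excluded a 2-fold change stayed within 1.5 times of the reported one in every alternative run, at 13076 to 14291 when 1 library was left out. The share depended on which genes were tested. It was 68.7% of 20787 genes as reported and 30.5% of 46552 without a filter on low counts. Genes past the adjusted threshold in 8P vs 0P were 2 with DESeq2's size factors, 2 without a filter on low counts, 2 with at least 1 CPM in 4 libraries, 20 with DESeq2, 1 with quality-weighted limma-voom and 3 with the replicate block (Mmrn1, Pcdh11x and Tnxb), and 0 to 5 with 1 library left out. For the difference of dose effects they were 1 without the filter (Cers3), 82 with DESeq2 and 0 to 26 with 1 library left out. Genes at an unadjusted p under 0.05 were 3206 without the filter, 3405 with quality weights, 738 and 908 with the share of all or of uniquely aligned reads off genes as a covariate, and 1148 (without 8P 3) to 3525 (without 8P 2) with 1 library left out. Of these genes 55.6% were higher in 8P, against 49.9% with DESeq2's size factors and 48.2% with limma-voom. Beyond fewer samples or other genes tested, the cause was not tested.

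Of 162 named genes the estimate of 49 turned sign in at least 1 alternative. For 5 of them the interval also excluded 0, either as reported or in that alternative. Of these, Ptgs2 ran from -2.06 to 0.025, Isl1 from -1.16 to 0.85 and Mcpt1 from -2.10 to 1.45 with 1 library left out, and with the share of uniquely aligned reads off genes as a covariate Hsp90b1 was at 0.29 and Mat2a at -0.22. Of the 42 list medians 25 turned sign in at least 1 alternative, among them those of Wnt/beta-catenin targets, the DNA methylation machinery, goblet cells, inflammation and colon epithelium. Polypoid libraries of different diets with the same replicate number did not deviate together (r = -0.28, -0.11, -0.12 and 0.33), so the numbers were not taken as pairs across diets. Whether polypoid and non-dysplastic libraries with the same number belong together was not tested. The reported fit took all libraries as independent, and the difference of dose effects rests on that. Depth limits what can be excluded for genes under 5 CPM.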
